A study of Mus musculus with 14 samples.

Results

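Protein phosphatases remove phosphate groups that kinases add, and the genes described here encode their catalytic subunits and the proteins that target or restrain them. A gene was counted when its trimmed symbol began with Ppp followed by 1 to 6, or with Ppm1, Ptpn, Ptpr or Dusp and a digit, apart from Ppp1r1b, Ppp1r9a and Dusp1. The rule found 107 genes of 10542 named genes, and 115 regions of 14881 regions with values. Where a gene had more than 1 region, the one with the highest mean stood for it. The values were H3K4me3 ChIP-seq signal in cerebral cortex, a tissue of mixed cell types. H3K4me3, trimethylation of lysine 4 on histone H3, is a mark found mainly at the promoters of active genes. The mice were C57BL/6J, 3 months old. In the first comparison, nicotine given only after birth (4 libraries) was set against saccharin given only after birth (4 libraries). In the second, nicotine given before and after birth (3 libraries) was set against saccharin over that course (3 libraries). The treatment text is the same for all 14 libraries. It describes solutions given to pregnant mice from conception, removed from the offspring at day 21 and followed by rest to day 90, so the postnatal-only course is known from the group names alone. The labels used here give neither sex nor dose, nor how many animals stand behind a library.

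The serine/threonine phosphatases of the PPP family work as holoenzymes, in which a small set of catalytic subunits joins many regulatory subunits that choose the substrate and the place in the cell. PP1 and PP2A carry most of the serine/threonine phosphatase activity of cells, and calcineurin, which calcium and calmodulin switch on, links calcium entry in neurons to receptor trafficking and transcription. The PPM1 enzymes depend on magnesium or manganese ions and act without such regulatory subunits. Protein tyrosine phosphatases span the membrane as receptors or lie in the cytosol, and several receptor types act in axon growth and synapse formation. Dual-specificity phosphatases (DUSPs) act on phosphotyrosine and on phosphothreonine or phosphoserine, and a group of them switches off MAP kinases. The symbols also take in proteins without phosphatase activity, such as the vesicle protein encoded by Ptprn. By subfamily, the 107 genes comprised 3 catalytic and 21 regulatory subunits of PP1, 13 subunits of PP2A, 4 of calcineurin, 7 of PP4 and PP6, PP5 alone (1 gene), 11 PPM1 genes, 13 non-receptor and 17 receptor tyrosine phosphatases and 17 DUSP genes.

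Promoter sequences were read for the genes on which the results below turn, to show how base composition lay beside levels of the mark. Genes of high and low signal per kb were picked among the 68 genes with 1 window. Shown are 2 of the highest (Ppp2r5a and Ppp2ca) and 2 of the lowest (Dusp8 and Ppm1n). Ptprf (high, 30 CpGs) and Dusp18 (low, 16 CpGs) were picked too and are not printed. Also shown are the genes with the lowest p-value after postnatal exposure (Ptpn1) and after pre- and postnatal exposure (Ptpn14). Each window runs 5′ to 3′ on the gene's strand from 250 bases before the start to 50 after it, from RefSeq on build GRCm38.p6. CpG dinucleotides, the sites of DNA methylation that are dense in many promoters, are in capitals.
Ppp2r5a: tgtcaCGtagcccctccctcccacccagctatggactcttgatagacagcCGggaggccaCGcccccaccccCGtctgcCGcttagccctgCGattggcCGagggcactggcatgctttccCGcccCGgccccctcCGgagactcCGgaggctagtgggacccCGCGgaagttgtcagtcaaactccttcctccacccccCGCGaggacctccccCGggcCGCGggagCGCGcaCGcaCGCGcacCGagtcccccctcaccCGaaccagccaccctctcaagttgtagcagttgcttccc
Ppp2ca: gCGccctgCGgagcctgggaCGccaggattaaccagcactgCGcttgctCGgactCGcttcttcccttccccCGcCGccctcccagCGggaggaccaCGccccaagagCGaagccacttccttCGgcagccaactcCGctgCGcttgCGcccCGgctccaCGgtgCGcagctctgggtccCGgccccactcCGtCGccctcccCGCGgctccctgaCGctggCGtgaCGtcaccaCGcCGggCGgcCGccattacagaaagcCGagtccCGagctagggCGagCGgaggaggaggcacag
Dusp8: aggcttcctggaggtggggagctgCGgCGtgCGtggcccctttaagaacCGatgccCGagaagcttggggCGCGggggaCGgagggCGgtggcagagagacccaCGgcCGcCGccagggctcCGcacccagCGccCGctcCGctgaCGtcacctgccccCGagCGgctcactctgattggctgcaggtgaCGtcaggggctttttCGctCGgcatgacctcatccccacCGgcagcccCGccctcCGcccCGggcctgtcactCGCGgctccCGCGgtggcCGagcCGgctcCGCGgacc
Ppm1n: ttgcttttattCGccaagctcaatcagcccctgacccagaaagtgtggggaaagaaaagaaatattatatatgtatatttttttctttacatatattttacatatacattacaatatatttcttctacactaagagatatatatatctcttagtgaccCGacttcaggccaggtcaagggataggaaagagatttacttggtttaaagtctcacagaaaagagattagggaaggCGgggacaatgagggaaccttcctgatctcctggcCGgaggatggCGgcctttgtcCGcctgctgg
Ptpn1: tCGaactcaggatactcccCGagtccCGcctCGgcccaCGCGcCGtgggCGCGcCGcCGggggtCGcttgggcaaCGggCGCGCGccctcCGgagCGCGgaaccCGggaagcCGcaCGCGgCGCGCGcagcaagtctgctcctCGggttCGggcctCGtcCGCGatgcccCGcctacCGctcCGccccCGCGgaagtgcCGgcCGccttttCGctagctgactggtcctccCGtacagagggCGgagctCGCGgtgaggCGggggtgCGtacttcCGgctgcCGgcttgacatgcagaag
Ptpn14: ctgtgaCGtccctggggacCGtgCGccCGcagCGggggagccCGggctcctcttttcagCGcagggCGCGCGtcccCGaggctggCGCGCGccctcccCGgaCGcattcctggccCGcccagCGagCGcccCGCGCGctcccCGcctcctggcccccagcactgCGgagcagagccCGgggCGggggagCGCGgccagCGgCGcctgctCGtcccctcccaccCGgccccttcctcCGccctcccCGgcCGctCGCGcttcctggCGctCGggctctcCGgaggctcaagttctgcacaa
The windows lie at chr1:191396992-191397291 on the minus strand (Ppp2r5a), chr11:52098574-52098873 on the plus strand (Ppp2ca), chr7:142095235-142095534 on the minus strand (Dusp8), chr7:19280000-19280299 on the minus strand (Ppm1n), chr2:167932077-167932376 on the plus strand (Ptpn1) and chr1:189728018-189728317 on the plus strand (Ptpn14).

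The Ppp2r5a and Ppp2ca windows held 25 and 34 CpGs, the Dusp8 window 34 and the Ppm1n window 6, against a median of 7 over all 32851 windows of the table (quartiles 3 and 20). The Ptpn1 and Ptpn14 windows held 47 and 40. The Dusp8 window thus had as many CpGs as the Ppp2ca window. The region assigned to Dusp8 was among the lowest of the 107 genes in signal per kb. That region may not lie over the window, so its signal cannot be read against these CpGs. The cAMP response element TGACGTCA, searched on both strands, occurred at 1 place in the Ppp2ca window and at 2 in the Dusp8 window, and 1.79% of all windows held it. The GC box GGGCGG occurred at 1 place for Ppp2r5a, at 2 for Ppp2ca and for Ptpn1, and at 3 for Dusp8 and for Ptpn14, and 35.7% of all windows held it. None of the 6 windows held TATAAA, which 13.6% of all windows did. A match is a string of letters and was not tested as a site. Windows matched 85 of the 107 genes (79.4%), so a comparison of CpG counts over the whole set is void. The ChIP-seq regions are on build mm9, and whether they lie over these windows was not analysed here.

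Each exposure had its own table, adjusted on its own by the submitters, so levels are compared within a table only. The values are adjusted read counts summed over a region, called signal here. Levels of different genes are compared per kb of region, because signal grows with width. For a rough check of the postnatal libraries, the adjusted values were read as counts, which they are not exactly. On that reading, libraries 1 and 2 of each group differed with a variance close to that of counting noise, as did libraries 3 and 4. The ratio was 1.01 to 1.08 times for these pairs, against 2.21 to 2.60 times for other pairs. Libraries 1 and 2, and libraries 3 and 4, were averaged and counted as 1 sample each, which left 2 nicotine and 2 saccharin samples. The share of signal held by the 15 strongest regions of the table, none of them at these genes, varied between samples. It was 25.2% and 10.04% in the postnatal nicotine samples and 8.47% and 18.7% in the saccharin samples. It was 19.1%, 49.7% and 41.9% in the pre- and postnatal nicotine libraries and 39.9%, 28.8% and 33.1% in the saccharin libraries. Of the markers of other cell types and regions, those of thalamus and choroid plexus (3 of 4 listed genes had a region: Gbx2, Tcf7l2 and Kl) summed lower with nicotine in both exposures without overlap. Their sum was 133 to 144 in nicotine samples and 159 to 162 in saccharin samples after postnatal exposure, and 54.9 to 83.9 in nicotine and 91.2 to 115 in saccharin libraries after pre- and postnatal exposure. Single regions lay apart on the lower side at 2089 of 14873 after postnatal exposure and at 663 of 14879 after pre- and postnatal exposure. How often sums of 3 regions lie apart in both exposures was not counted, so these marker sums cannot be said to stand out. The part of these marker sums in the differences below was not tested. For the other marker lists, neurons (3 of 8 genes with a region, Slc17a7 and Neurod2 of cortical excitatory neurons among them), astrocytes (1 of 5), oligodendrocytes (4 of 5), microglia (1 of 6), endothelium (3 of 4) and striatum (3 of 4), the groups overlapped in both exposures. In bulk tissue, fewer cells of a type and less of the mark per cell cannot be told apart.

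In saccharin cortex the phosphatase genes were marked above the middle of all genes. The median signal per kb was 83.5 for the 107 genes and 61.1 for all named genes in postnatal saccharin samples, and 49.1 and 37.0 in pre- and postnatal saccharin libraries. Of the 107 genes, 74 (69.2%) lay above the median of all named genes in the postnatal table and 73 (68.2%) in the other. 38 genes lay above the upper quartile of all genes (101.2 per kb) and 15 below the lower quartile (33.5 per kb) in the postnatal table, with 40 and 17 in the pre- and postnatal table (quartiles 59.2 and 23.1 per kb). Their regions were also wider, with a median of 1930 bp against 1657 bp over all named genes. These are descriptions, with no test, since genes are not replicates. The genes kept nearly the same order of levels in both tables (Pearson r 0.959 on log2 values, Spearman rho 0.974 over 107 genes). Both tables list the same regions, so base composition and region width are shared.

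**Figure D1:**
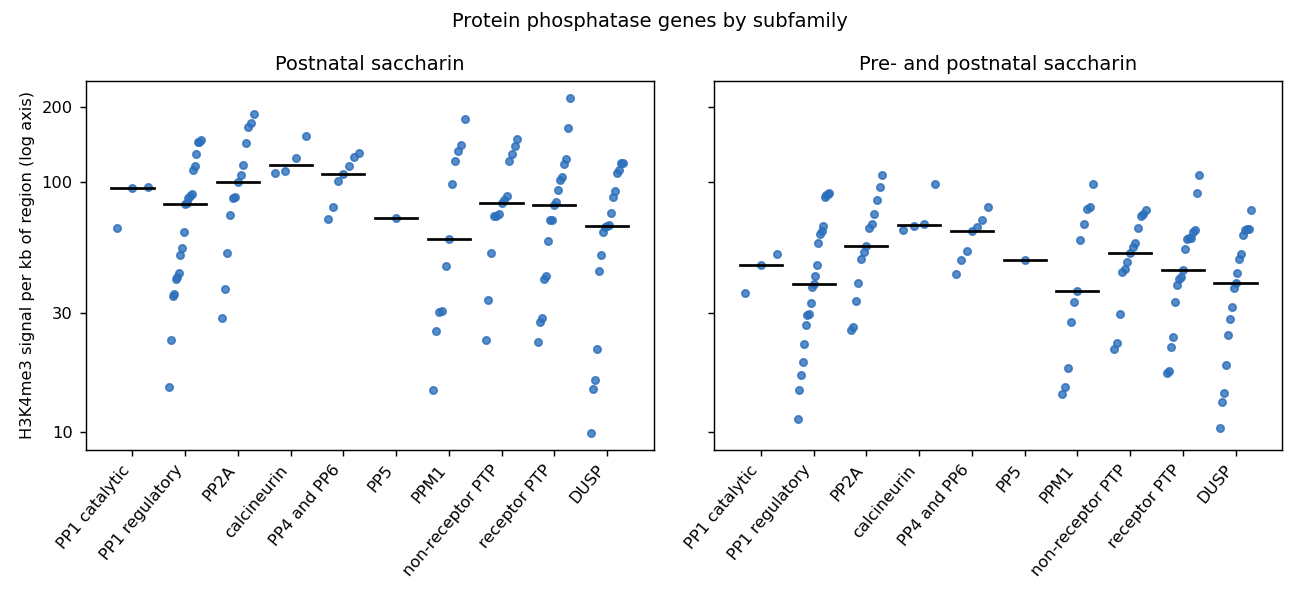
H3K4me3 signal per kb of region (log axis) at each of the 107 protein phosphatase genes, by subfamily, as the mean of the saccharin samples of each exposure; black bars are subfamily medians. Calcineurin genes sit at 109 to 154 per kb in the postnatal table, while the DUSP genes spread from 9.89 to 120 per kb.

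The catalytic subunit genes of PP2A stood high. Ppp2cb and Ppp2ca, which encode these subunits, held 210 ± 0.733 and 182 ± 14.3 per kb in postnatal nicotine samples. They held 187 ± 3.75 and 166 ± 9.25 per kb in saccharin samples (SD, n = 2 each). Ppp2r5a, a B56-type subunit that directs PP2A to its substrates, held 194 ± 3.12 per kb with nicotine and 173 ± 21.7 with saccharin. Among the other PP2A genes the lowest in the postnatal table was Ppp2r5c, also of the B56 type. It held 33.1 ± 8.24 per kb in nicotine samples and 28.6 ± 16.6 in saccharin samples. In pre- and postnatal saccharin libraries Ppp2r1a (25.5 ± 4.91) and Ppp2r5c (26.4 ± 1.78) were the lowest and overlapped. The PP2A subunits thus spanned a range from far below to far above the median of all genes.

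The 3 catalytic subunits of PP1 stood lower than those of PP2A. Ppp1cc and Ppp1ca had 92.7 ± 7.74 and 101 ± 0.994 per kb in postnatal nicotine samples, and 95.4 ± 5.74 and 94.8 ± 7.82 per kb in saccharin samples. Ppp1cb had 60.7 ± 1.10 per kb with nicotine and 65.6 ± 18.0 with saccharin. The PP1 regulatory subunits ranged from 15.2 to 147 per kb in saccharin samples. At their top were Ppp1r9b (spinophilin, which holds PP1 in dendritic spines), with 153 ± 9.94 per kb in nicotine and 147 ± 5.26 in saccharin samples, and Ppp1r12c, a myosin phosphatase targeting subunit, with 165 ± 5.61 and 146 ± 6.81. At their bottom were Ppp1r3b, which brings PP1 to glycogen (18.0 ± 4.42 per kb in nicotine samples and 15.2 ± 4.47 in saccharin samples), and Ppp1r11, an inhibitor of PP1 (16.4 ± 15.2 and 23.4 ± 2.37).

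All 4 calcineurin genes were strongly marked. Ppp3ca, the main catalytic subunit in brain, led with 161 ± 0.742 per kb in postnatal nicotine samples and 154 ± 13.3 in saccharin samples, over a region of 3703 bp (chromosome 3, 136331947 to 136335650, mm9) that was among the widest of the set. Ppp3cb followed with 135 ± 1.13 and 125 ± 5.01 per kb, Ppp3cc with 117 ± 0.188 and 111 ± 1.81, and the regulatory subunit gene Ppp3r1 with 115 ± 13.9 and 109 ± 0.679. Ppp3cc and Ppp3r1 did not differ beyond their spread. In pre- and postnatal saccharin libraries Ppp3ca again led (98.4 ± 5.37 per kb, SD, n = 3), while Ppp3cc (68.3 ± 7.26), Ppp3cb (66.9 ± 11.5) and Ppp3r1 (64.3 ± 6.61) overlapped.

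Among the PP4 and PP6 genes, the PP6 catalytic subunit gene Ppp6c had 148 ± 15.3 per kb in postnatal nicotine samples and 132 ± 21.0 in saccharin samples, and Ppp6r2, a PP6 regulatory subunit, had 145 ± 1.83 and 126 ± 2.55. The PP4 catalytic subunit gene Ppp4c had 110.2 ± 24.2 and 108 ± 19.5. Ppp5c, which encodes an enzyme that binds the HSP90 chaperone, stood near the middle of the set with 76.5 ± 1.82 and 72.0 ± 1.29. The PPM1 genes were spread widely. Ppm1b and Ppm1a, which act on stress kinases, had 173 ± 20.1 and 157 ± 6.43 per kb in nicotine samples and 180.1 ± 6.46 and 141 ± 4.65 in saccharin samples. Ppm1n, Ppm1f (a phosphatase of CaM kinase II) and Ppm1j had 11.5 ± 3.88, 22.4 ± 10.4 and 27.0 ± 5.56 per kb in nicotine samples, and 14.7 ± 3.97, 25.3 ± 5.48 and 30.3 ± 10.2 in saccharin samples.

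In the postnatal table the highest level of all 107 genes belonged to a receptor tyrosine phosphatase, Ptprj, with 229.6 ± 4.80 per kb in postnatal nicotine samples and 218 ± 25.6 in saccharin samples. Ptprf, which encodes LAR, a receptor of axons and synapses, had 156 ± 1.08 and 164 ± 6.61. Of the non-receptor type, Ptpn9, which acts on vesicles, and Ptpn12, which acts on focal adhesion proteins, were highest, with 150.0 ± 6.73 and 142 ± 0.821 per kb in nicotine samples and 149 ± 3.07 and 139.9 ± 4.73 in saccharin samples. Ptpn5, which encodes the neuronal phosphatase STEP, had 88.8 ± 3.76 and 82.6 ± 6.55. The DUSP genes ran from levels above the upper quartile of all genes to very low ones. Dusp16 and Dusp5, MAP kinase phosphatases for JNK and ERK, had 139 ± 22.5 and 132 ± 11.7 per kb in nicotine samples and 119.9 ± 9.56 and 119 ± 5.06 in saccharin samples. Dusp18, Dusp9 and Dusp8 had 11.5 ± 8.06, 9.23 ± 0.494 and 11.9 ± 3.59 per kb in nicotine samples, and 9.89 ± 5.69, 14.9 ± 3.67 and 16.1 ± 0.0687 in saccharin samples. In postnatal saccharin samples Dusp18 was the lowest of the 107 genes, at percentile 1.44 of all named genes, and Ptprj stood at percentile 99.3. In pre- and postnatal saccharin libraries the lowest was Dusp8, with 10.4 per kb at percentile 1.91, and Dusp18 stood at percentile 7.31.

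The first comparison asked whether nicotine after birth went with a change of the mark in adult cortex. The phosphatase genes were nearly level between the groups. With nicotine, 61 genes were higher and 46 lower (57.0% higher, against 49.1% of all regions). The counts were 75 higher and 32 lower under median scaling (70.1%, against 59.9% of all regions) and 55 and 52 under quantile normalization (51.4%, against 49.6%). The median log2 difference, nicotine minus saccharin, was 0.02 for the 107 genes and -0.0036 over all regions. With limma on log2(value + 1) and Benjamini-Hochberg adjustment, 0 of 107 genes had an adjusted p under 0.05, as did 0.0% of 14873 regions, with no adjusted p lower than 1.00. By unadjusted p the count under 0.05 was 0 genes, against 1.89% of all regions. The 2 nicotine samples did not overlap the 2 saccharin samples at 27 genes (17 higher and 10 lower, 25.2% of the genes), against 29.1% of all regions. The 95% interval of the difference had a median half-width of 0.27 on the log2 scale, or 1.20-fold. For 99 of 107 genes (92.5%) it lay within 1 log2 unit of no difference, against 81.7% of all regions.

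The lowest p-value after postnatal exposure belonged to Ptpn1, which encodes PTP1B, a phosphatase of the insulin and leptin receptors. Its region (chromosome 2, 167757110 to 167759624, mm9) had a signal of 268 and 250.1 in nicotine samples, against 220.3 and 223 in saccharin samples. Both nicotine samples lay above both saccharin samples, and the log2 difference was 0.22 ± 0.11 (SE, 95% interval -0.0081 to 0.45, limma adjusted p = 1.00). Ppp6r2 (chromosome 15, 89041462 to 89043436) had 284 and 289 with nicotine, against 252 and 245 with saccharin. Its samples lay apart in the same way, with a log2 difference of 0.20 ± 0.11. Ppp2cb had 321 and 319 with nicotine, against 281 and 289.6 with saccharin, a log2 difference of 0.17 ± 0.10. The samples of each group lay close together here, and the step between the groups was small.

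On the higher side, Ppp1r12c had 411 and 391 in nicotine samples, against 366 and 343 in saccharin samples (log2 difference 0.18 ± 0.11). Ppp2r5a had 505 and 493, against 484 and 405 (0.17 ± 0.11), and Ppm1a had 391 and 369, against 349 and 332 (0.16 ± 0.10). Dusp16 had 305 and 242 with nicotine, against 249.8 and 223 with saccharin, so its groups overlapped. Ppp4r2, a subunit that PP4 uses in DNA repair, had 146 and 129.6, against 125 and 115 (0.20 ± 0.14). Ptprb, the phosphatase of endothelial junctions, had the largest difference on this side, 59.9 and 37.3 with nicotine, against 36.9 and 32.5 with saccharin (0.44 ± 0.29). The nicotine sample of libraries 1 and 2 alone carried that step, since the other lay just above the higher saccharin sample.

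On the lower side, Ptpro, a receptor phosphatase of neurons and of kidney podocytes, had 45.5 and 49.6 in nicotine samples, against 63.2 and 61.7 in saccharin samples. The groups were apart, with a log2 difference of -0.39 ± 0.22 (95% interval -0.85 to 0.08, limma adjusted p = 1.00). Ppp1r15a and Ppp1r15b, which direct PP1 to the translation factor eIF2α, were both lower with nicotine in every sample. Ppp1r15a had 55.0 and 63.7 with nicotine, against 64.7 and 78.1 with saccharin (-0.26 ± 0.21). Ppp1r15b had 177 and 172, against 201 and 190.1 (-0.16 ± 0.12). Ppp1r8, a nuclear inhibitor of PP1, had 53.8 and 42.0, against 55.2 and 67.1 (-0.35 ± 0.23). Dusp4, a nuclear MAP kinase phosphatase, had 158 and 195, against 217 and 187 (-0.20 ± 0.13), with overlap. Dusp9, an X-linked MAP kinase phosphatase with a weak region, had 9.36 and 10.1, against 18.5 and 13.0 (-0.62 ± 0.47).

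The largest difference on the lower side rested on 1 sample. Ppp1r11 (chromosome 17, 37087531 to 37088927) had 37.9 and 7.92 in nicotine samples, against 30.3 and 35.0 in saccharin samples. The first nicotine sample was the highest of the 4 and the second the lowest, which gave a log2 difference of -0.85 ± 0.50. Without the nicotine sample of libraries 3 and 4 the difference was 0.21. The low nicotine sample also had a low share of signal in the strongest regions. Between the samples of high share the difference was 0.11, and between those of low share it was -1.81, each from 1 sample a group.

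**Figure D2:**
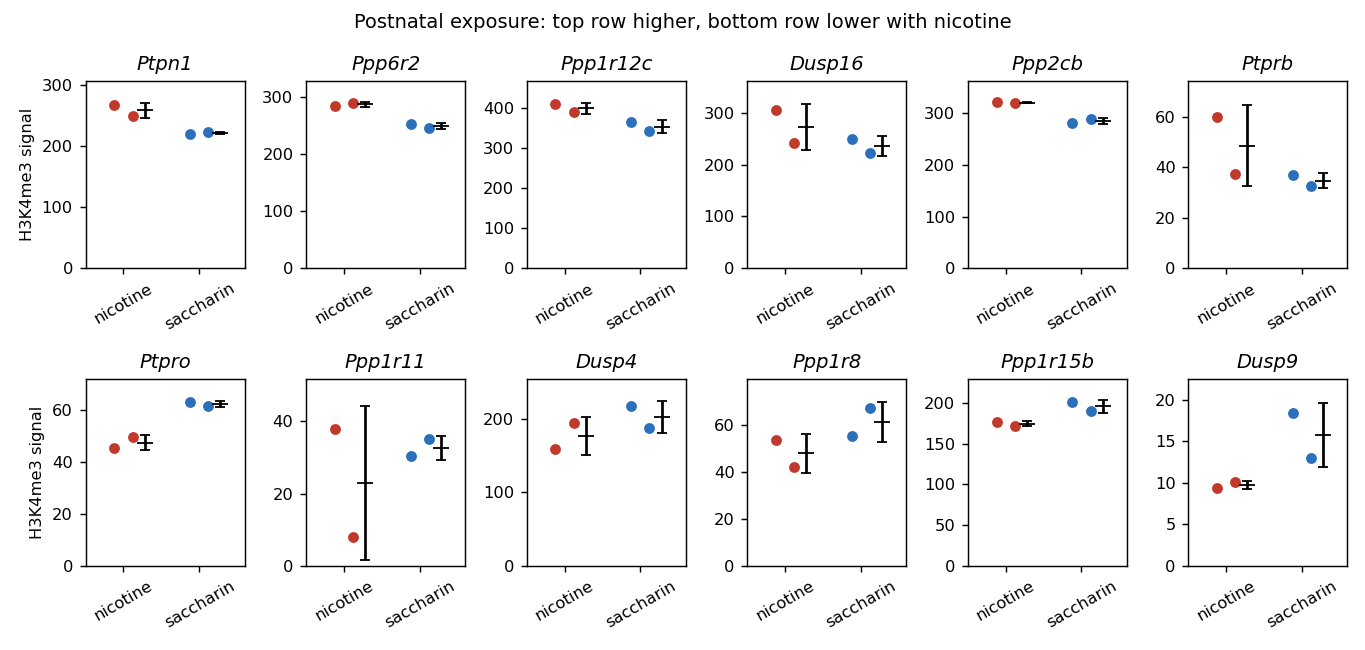
Signal after postnatal exposure at the 6 genes of lowest p on the higher side (top) and on the lower side (bottom). Points are samples (means of 2 libraries), red for nicotine and blue for saccharin, and bars are the mean with SD (n = 2 each). The groups overlap at Dusp16, Dusp4 and Ppp1r11 and are apart at the other genes shown, and 1 nicotine sample sets the Ppp1r11 difference.

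By subfamily after postnatal exposure, the PP4 and PP6 genes were higher in 7 of 7 (median log2 difference 0.08) and the calcineurin genes in 4 of 4 (median 0.08), with none past the test. Under quantile normalization these counts were 6 of 7 and 3 of 4. Ppp3ca, with 592 and 596 in nicotine samples against 604 and 534 in saccharin samples, was the calcineurin gene that then fell below 0. The DUSP genes were higher in 11 of 17. The PPM1 genes were higher in 4 of 11, in 6 under median scaling and in 2 under quantile normalization. The differences of the catalytic subunits of PP1 lay within their SE of 0, and those of PP2A were on the higher side. Log2 differences were 0.09 ± 0.12 for Ppp1ca, -0.08 ± 0.16 for Ppp1cb and -0.04 ± 0.12 for Ppp1cc. For PP2A they were 0.13 ± 0.11 for Ppp2ca and 0.17 ± 0.10 for Ppp2cb, and the groups lay apart at Ppp2cb but not at Ppp2ca. The receptor tyrosine phosphatases were higher in 9 of 17 (11 under median scaling and 8 under quantile normalization) and the non-receptor ones in 8 of 13 (10 and 6), so the majority side of these subfamilies depended on the scaling.

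The second comparison concerned nicotine before and after birth. Again the genes divided nearly evenly, 58 higher and 49 lower with nicotine (54.2% higher, against 50.5% of all regions). Under median scaling the counts were 53 and 54, and under quantile normalization 51 and 56. The median log2 difference was 0.02, against 0.0027 over all regions. With the same limma fit 0 of 107 genes passed, as did 0.0% of 14879 regions (smallest adjusted p 0.987). At an unadjusted p under 0.05 there were 2 genes (1.87%), Ptpn14 and Ppp2r5b, both lower with nicotine, against 3.59% of all regions (1.87% on the lower side). The 3 nicotine libraries did not overlap the 3 saccharin libraries at 8 genes (7.48%), against 8.95% of all regions. Of these, 4 were higher and 4 lower with nicotine, against 4.49% and 4.46% of all regions. The 95% interval had a median half-width of 0.39 on the log2 scale, or 1.31-fold, and for 91 genes (85.0%) it lay within 1 log2 unit of no difference, against 70.2% of all regions.

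Ptpn14, a non-receptor phosphatase that binds the Hippo pathway coactivator YAP, had the largest difference of the 107 genes. Its region (chromosome 1, 191551251 to 191553131, mm9) had 36.1, 20.6 and 22.6 in nicotine libraries, against 59.3, 52.6 and 55.2 in saccharin libraries. All 3 nicotine libraries lay below all 3 saccharin libraries. The log2 difference was -1.09 ± 0.29 (SE, 95% interval -1.69 to -0.48), with an unadjusted p of 0.0012 and an adjusted p of 0.987 in limma over 14879 regions. With any 1 library left out, the difference ran from -1.33 to -0.94, and the lowest adjusted p was 0.0761, without nicotine library 1. After postnatal exposure the same region had 83.1 and 98.9 in nicotine samples, against 86.9 and 109 in saccharin samples, and the groups overlapped (-0.10 ± 0.17).

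The other gene at an unadjusted p under 0.05 was Ppp2r5b, a B56-type subunit of PP2A. It had 60.7, 64.1 and 34.3 in nicotine libraries, against 69.7, 81.9 and 82.8 in saccharin libraries. The groups were apart, and nicotine library 4 was the lowest by a wide step (log2 difference -0.60 ± 0.24, unadjusted p 0.023, limma adjusted p 0.987). Without library 4 the difference was -0.32. Ppp1r12b, a myosin phosphatase targeting subunit, had 71.0, 93.6 and 78.5 with nicotine, against 113, 106 and 97.3 with saccharin. Its highest nicotine library lay just below its lowest saccharin library (-0.38 ± 0.19). Ppp1r9b had 292, 218 and 225 with nicotine, against 285, 286 and 300.5 with saccharin, so 1 nicotine library lay among the saccharin ones and 2 below (-0.26 ± 0.15).

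Ptprr and Ptprn2, further genes on the lower side, overlapped between the groups. Ptprr, an ERK phosphatase of neurons, had 24.5, 41.7 and 60.9 with nicotine, against 57.2, 77.0 and 44.3 with saccharin (-0.54 ± 0.30). Ptprn2, a protein of dense-core vesicles, had 103, 75.8 and 99.1, against 128, 117 and 102 (-0.32 ± 0.18). Dusp9 had 8.55, 7.99 and 5.88, against 14.6, 11.2 and 15.8, and did not overlap (-0.81 ± 0.51). In both exposures every nicotine sample of Dusp9 thus lay below every saccharin sample. Its signal was at most 18.5 and its intervals included 0. Groups lay apart on the lower side at 2089 of 14873 regions after postnatal exposure and at 663 of 14879 after pre- and postnatal exposure. Ptpra lay apart in both exposures too, on the higher side. How many regions lay apart on one side in both exposures was not counted, so Dusp9 cannot be said to stand out.

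On the higher side the lowest p-value belonged to Ppp1r1a, which encodes inhibitor-1, a PP1 inhibitor switched on by protein kinase A. It had 75.8, 56.4 and 91.3 in nicotine libraries, against 48.9, 56.5 and 52.0 in saccharin libraries. One nicotine library lay at the level of the highest saccharin library and the others above it (log2 difference 0.47 ± 0.23, limma adjusted p 0.987). Ptprn, the partner of Ptprn2 on dense-core vesicles, had 32.1, 61.7 and 49.1, against 39.4, 26.2 and 25.1 (0.62 ± 0.31). Its nicotine library 1 lay below a saccharin library. Ptpn13, a large phosphatase with PDZ domains, had 133, 149 and 132 with nicotine, against 105, 106 and 120.1 with saccharin, without overlap (0.32 ± 0.16). Ppp1r13b, which encodes the p53-binding protein ASPP1, had 282, 268 and 272, against 219, 261 and 227, also without overlap (0.22 ± 0.14). Ptpra and Ppp2r5c were the other genes whose nicotine libraries all lay above the saccharin ones, with log2 differences of 0.19 ± 0.17 and 0.31 ± 0.30.

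**Figure D3:**
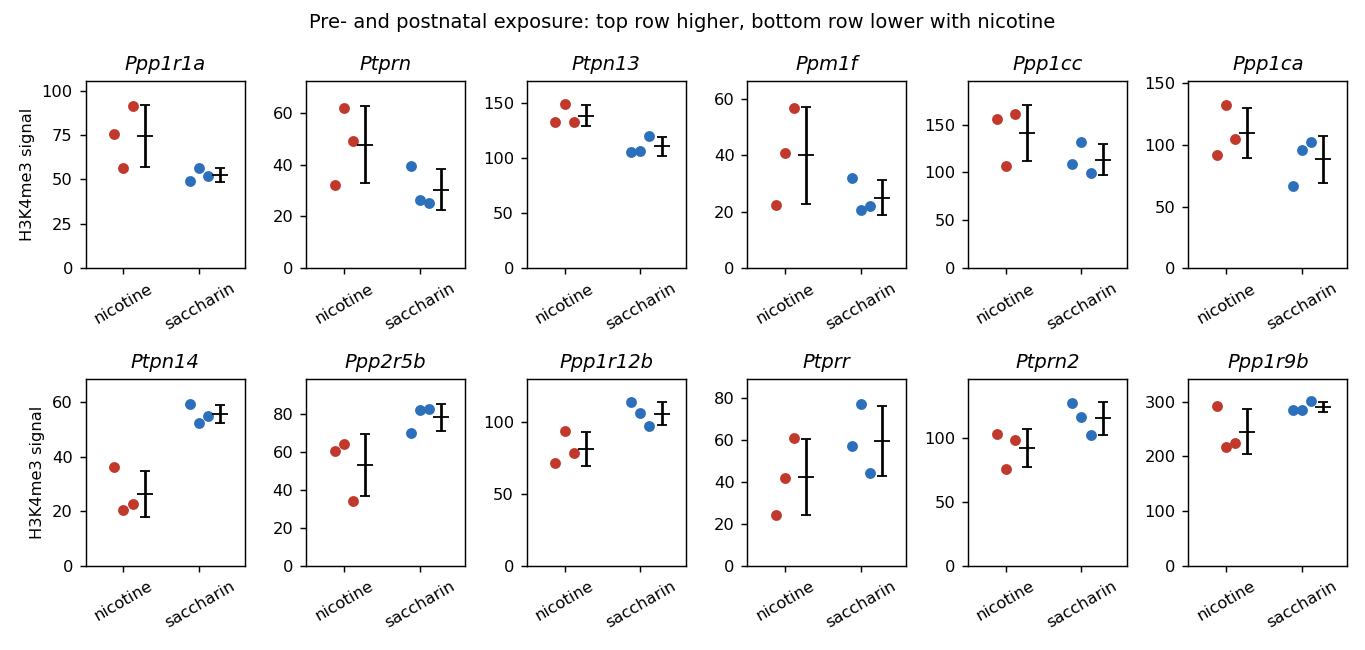
Signal after pre- and postnatal exposure at the 6 genes of lowest p on the higher side (top) and on the lower side (bottom). Points are libraries, red for nicotine and blue for saccharin, and bars are the mean with SD (n = 3 each). Ptpn14 shows nicotine libraries at 20.6 to 36.1 and saccharin libraries at 52.6 to 59.3, while most other genes overlap.

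The catalytic subunits of PP1 were higher in 2 of 3 after pre- and postnatal exposure. Ppp1cc had 156, 107 and 161 in nicotine libraries, against 109, 132 and 99.7 in saccharin libraries (0.30 ± 0.18), and Ppp1ca had 91.8, 132 and 105, against 66.7, 96.0 and 102 (0.32 ± 0.20). Ppp1cb had 104, 51.3 and 85.4, against 80.1, 76.7 and 75.0, and its difference was close to 0. The PP2A genes were higher in 9 of 13, among them the B55-type subunits Ppp2r2a (0.29 ± 0.18) and Ppp2r2b (0.32 ± 0.21). Under median scaling and quantile normalization that count was 8 and 7. The DUSP genes were higher in 5 of 17, and none passed. Calcineurin genes were higher in 3 of 4, with Ppp3ca at 368, 387 and 341 in nicotine libraries and 385, 363 and 345 in saccharin libraries. That count was 2 of 4 under median scaling and under quantile normalization. The weakly marked Ppm1f had 22.6, 40.9 and 57.0, against 32.2, 20.6 and 22.2 (0.59 ± 0.36). Its nicotine library 1 lay among the saccharin libraries.

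Nicotine library 1 had the lowest share of signal in the strongest regions. Without it 17 regions of the table passed (0.114%), none of them at these genes. 11 genes then had an unadjusted p under 0.05 (10.3%, 5 higher and 6 lower), against 11.4% of all regions. These included Ptprn (0.87), Ppm1f (0.95) and Ppp1r11 (1.08) on the higher side, and Ptpn14 (-1.33), Ppp2r5b (-0.72) and Ppp1r9b (-0.39) on the lower side, as log2 differences.

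**Figure D4:**
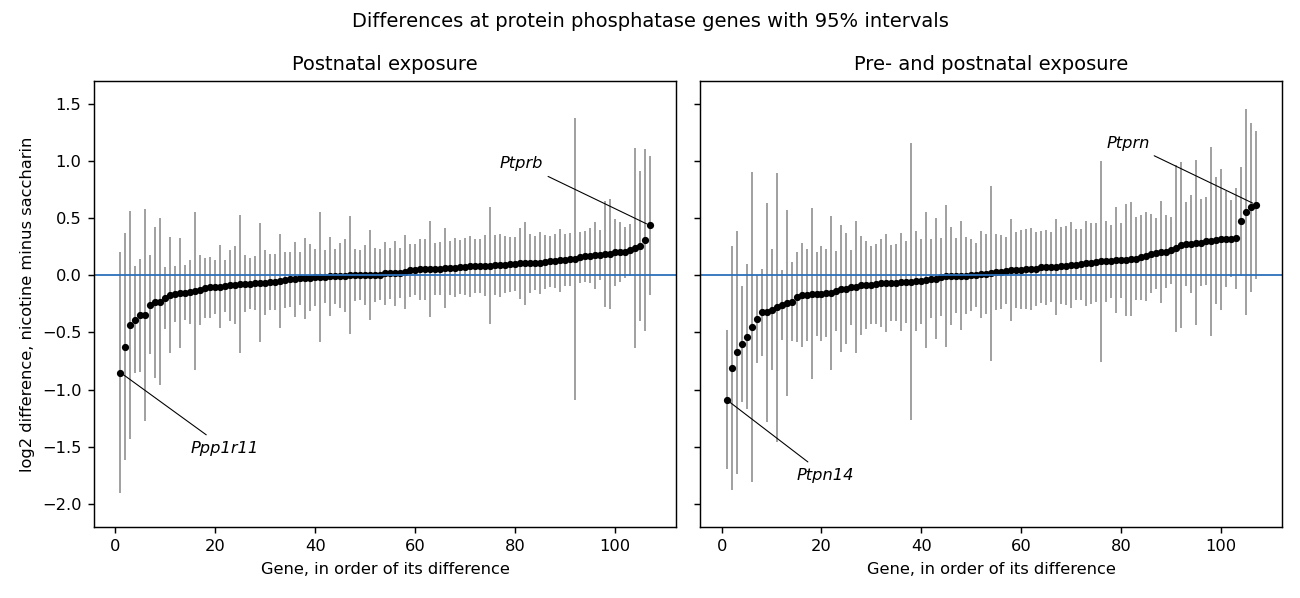
Log2 difference, nicotine minus saccharin, at each of the 107 genes with its 95% interval (grey lines), in order of size within each exposure. Intervals cross 0 at every gene but Ptpn14 and Ppp2r5b after pre- and postnatal exposure. The extremes are Ppp1r11 (-0.85) and Ptprb (0.44) after postnatal exposure, and Ptpn14 (-1.09) and Ptprn (0.62) after pre- and postnatal exposure.

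The exposures were then compared with each other. Each had its own saccharin controls, so their differences share no sample. Of the 107 genes, 58 (54.2%) had a difference of one sign in both exposures, 35 higher and 23 lower with nicotine, against 50.2% of all regions. The Pearson correlation of the differences was 0.03 over the 107 genes and -0.03 over all regions, as a description over genes. In a test of the change between exposures (pre- and postnatal minus postnatal, z test from both fits), 0 of 107 genes and 0.0% of 14871 regions passed an adjusted p of 0.05. At an unadjusted p under 0.05 there were 3 genes, against 3.65% of all regions. These were Ptpn14 (-0.99, unadjusted p 0.0034), Ppp1r11 (1.41, p 0.034) and Ptprn (0.79, p 0.046). The Ppp1r11 value rests on the 1 low postnatal sample described above.

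**Figure D5:**
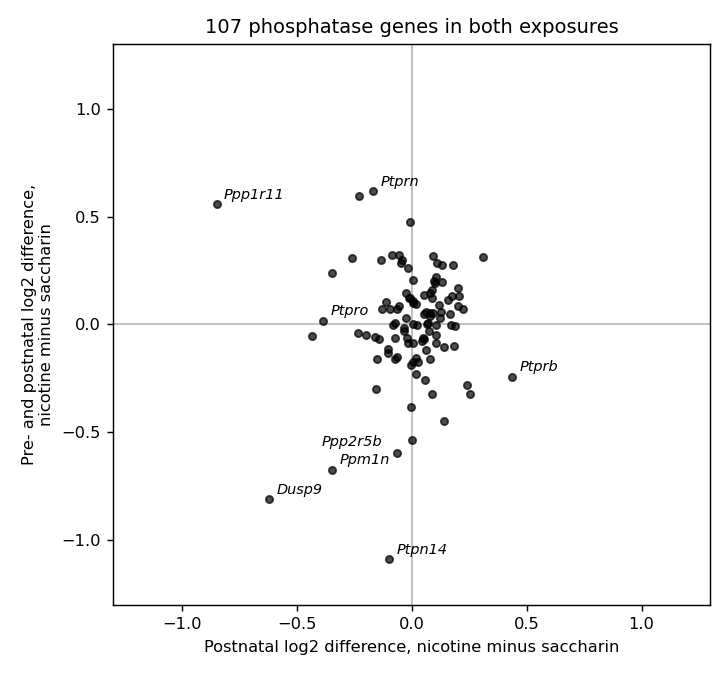
Log2 difference, nicotine minus saccharin, at each of the 107 genes after postnatal exposure (horizontal axis) and after pre- and postnatal exposure (vertical axis). The points form no line (Pearson r 0.03); Dusp9 lies low on both axes and Ptpn14 low on the vertical axis alone.

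Several genes had further regions, 8 in all at 6 genes. Ptprs, a receptor phosphatase that binds proteoglycans on axons, had 4 regions, and its main one had 201 and 233 in postnatal nicotine samples, against 245 and 235 in saccharin samples (-0.15 ± 0.11). Its 3 weaker regions had postnatal differences of 0.14 ± 0.21, -0.23 ± 0.65 and -0.20 ± 0.25. Ptprn2 had a second, weaker region, with 68.1, 73.1 and 102 in pre- and postnatal nicotine libraries, against 92.5, 76.5 and 71.3 in saccharin libraries. The log2 difference was 0.0038 ± 0.21 at the second region and -0.32 ± 0.18 at the first, and the gap between the regions was not tested. The second regions of Ptpn18, Ppp2r2b, Ptprf and Ptprd did not differ at an unadjusted p under 0.05 in either exposure, and the largest of their differences, at a weak region of Ptprd after postnatal exposure, was -0.77 ± 0.74.

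Postnatal samples also divided by how much signal the strongest regions took, across the treatments. Nicotine libraries 1 and 2 stood with saccharin libraries 3 and 4 (high), and nicotine libraries 3 and 4 with saccharin libraries 1 and 2 (low). These classes were made from the data and are not groups of the study. High against low, limma called 8 of the 107 genes (7.48%, against 5.92% of all regions at an adjusted p under 0.05). The fit left 1 residual degree of freedom, so these calls rest on a spread pooled over regions. The classes were also drawn from the same samples that were then compared. The adjusted p-values thus have no known error rate, and the genes named next are a description. The fit for nicotine with the class as a term shares both limits. Higher in the high class were Ppp1r11 (log2 difference 1.16), Dusp18 (1.27), Ppp2r5c (0.86) and Ppm1k, a mitochondrial phosphatase of amino acid breakdown (0.57). At Ppp1r11 the saccharin samples lay close together (35.0 in the high class, 30.3 in the low). Its step rests mainly on the low nicotine sample (7.92, against 37.9 in the high class). Lower were Dusp11, a phosphatase of RNA ends (-0.46), Ppp4c (-0.41), Ptpn23, a protein of endosomal sorting (-0.46), and Dusp23 (-0.52). When the class entered the fit for nicotine, 0 genes passed (0.0605% of all regions did), and 5 had an unadjusted p under 0.05 (4.67%, against 7.15% of all regions). These were Ppp1r11, Ptpn1, Ptpro, Ptprb and Ppp6r2. With all 8 libraries as samples there were 9 (8.41%, against 9.25% of all regions). That fit counts the near-identical paired libraries as separate samples, so its SE and p-values are too small. Of the 9, 8 were higher with nicotine, and the share of all regions by direction was not counted for this fit. Ptpn1 led these 9 genes (0.22 ± 0.07, against an SE of 0.11 with the pairs averaged), and none passed the adjustment.

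Genes outside the symbol rule were looked at as 2 lists. Of 55 other phosphatases listed, such as the myotubularins and the PHLPP enzymes, 45 had a region. After postnatal exposure 25 were higher and 20 lower with nicotine, and after pre- and postnatal exposure 24 and 21, with 0 passing in limma in each. At an unadjusted p under 0.05 there were 2 after postnatal exposure (4.44%, against 1.89% of all regions) and 0 after pre- and postnatal exposure (against 3.59%). The lowest p-values belonged to Mtmr3, a phosphoinositide phosphatase, with 346 ± 15.7 in postnatal nicotine samples and 285 ± 46.6 in saccharin samples (0.29 ± 0.12), and to Phlpp2, which acts on the kinase Akt, with 445 ± 15.6 and 379 ± 9.26 (0.23 ± 0.10). After pre- and postnatal exposure they belonged to Mtmr6 (0.45 ± 0.23) and Ctdsp1 (-0.37 ± 0.21).

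Of 44 listed inhibitors, activators and calcineurin targets, 35 had a region. They were higher in 23 and lower in 12 after postnatal exposure, and higher in 21 and lower in 14 after pre- and postnatal exposure, with 0 passing in each. At an unadjusted p under 0.05 there was 1 after postnatal exposure (2.86%, against 1.89% of all regions) and there were 3 after pre- and postnatal exposure (8.57%, against 3.59%). Ensa, which inhibits PP2A during mitosis, had 34.5 ± 7.63 in postnatal nicotine samples and 55.2 ± 16.1 in saccharin samples (-0.65 ± 0.28), and Phactr4, a PP1-binding protein, differed by 0.21 ± 0.12. Calm3, 1 of the calmodulin genes whose product switches calcineurin on, had 98.2 ± 10.9 in pre- and postnatal nicotine libraries and 66.1 ± 1.34 in saccharin libraries (0.56 ± 0.19, unadjusted p 0.0079, limma adjusted p 0.987). Igbp1, which holds free PP2A catalytic subunits, had 37.8 ± 20.0 and 17.6 ± 2.18 (0.90 ± 0.41). The list medians were 0.03 and 0.02 for the other phosphatases and 0.03 and 0.05 for the inhibitors and targets (the value after postnatal exposure, then that after pre- and postnatal exposure).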

How the data were processed

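H3K4me3 ChIP-seq of cortex samples of 50 mg fixed in 1% formaldehyde was read for 36 cycles on an Illumina Genome Analyzer after 18 PCR cycles, per the labels' protocols. Per the submitters' processing notes the authors adjusted the reads of each mm9 region with edgeR. The deposited result is a signal that is not whole and was adjusted per table. For the aligner, peak caller and filters, the sources used here give nothing. Adjusted values do not give back the depth, so counting intervals cannot be formed. Library sums were 2004918 to 2489860 (postnatal) and 1445810 to 2372855. Of 19203 rows in each table, 14881 had values and 4322 were empty repeats, left out.

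Each table was fitted whole with limma 3.58.1 (trend) in R 4.3.3 on log2(value + 1), over regions of at least 1 in as many samples as the smaller group, two-sided, with Benjamini-Hochberg adjustment at 0.05. All 107 genes passed this filter in both tables. The labels do not say that libraries are separate animals, so p-values cover only the spread from sample to sample, which may be technical. The fits were also run on simulated data with noise drawn apart for each sample. Such data lack the deviations that postnatal samples shared across treatments, so that run cannot vouch for the p-values here. Figures were drawn with matplotlib 3.10.9.

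The genes, lists and named-gene rule were chosen with earlier results of these data known. Named were, per exposure and direction, the 10 genes of lowest p, the 8 of highest and 8 of lowest signal per kb, the top 2 of each subfamily, and all catalytic subunits. From each outside list the 2 of lowest p per exposure were named. Ptpn5, Ppp3r1, Ppp2r5c, Ptpra, the genes called between classes of share and the genes with further regions were named after their values were seen. Alternatives were pseudocounts 0.5 and 5, no filter or a mean of at least 10, median scaling, quantile normalization, a replicate block, single samples left out, regions summed per gene, all 8 postnatal libraries, and the share of the strongest regions (postnatal mean over 3000) as a term.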

Additional observations from a re-analysis of the deposited data

How the results depend on the processing

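None of the 107 genes passed under any alternative run, and of 67 results for single genes 55 kept their direction throughout. Many of these genes were named for a low p in the main fit, which favours a kept direction. The count thus does not measure how stable the 107 genes are. After postnatal exposure the number of regions passing was 0, but 9 with the class of share as a term, none at these genes. With samples left out it ran from 0 to 31 (7 without nicotine libraries 1 and 2, 31 without nicotine libraries 3 and 4), and after pre- and postnatal exposure from 0 to 17. The replicate block gave 1 region after postnatal exposure and 0 after pre- and postnatal exposure. Same-numbered postnatal samples had a deviation correlation of -0.46, and the crossed replicate block, added after the data were seen, is the same fit as that with the class of share and gave the same 9. For the pre- and postnatal numbers 1 and 3 the correlations were -0.11 and -0.10. Deviations from a mean of 3 libraries are tied to each other, so these values cannot show whether those libraries share more than a number. The postnatal median of the 107 genes was 0.0662 under median scaling, which took all regions to 0.05, and ran from -0.0143 to 0.0543 with samples left out. Directions reversed, after postnatal exposure, for Ppp1cc (0.0064, median scaling) and Ppp3ca (-0.0309, quantile normalization). After pre- and postnatal exposure they reversed for Ppp1cb (0.0010, pseudocount 5), Ppp3ca (-0.0189, median scaling, and -0.0740, quantile normalization), Ppp2cb (-0.00564, quantile normalization, and -0.0777, replicate block) and Ppp3cc (-0.0139, replicate block). With samples left out, postnatal differences ran from -0.37 to 0.20 for Ppp1cb, -0.13 to 0.0412 for Ppp1cc, -0.0234 to 0.15 for Ppp3ca, -0.20 to 0.25 for Ppp4c and -1.91 to 0.21 for Ppp1r11. Pre- and postnatal ones ran from -0.22 to 0.29 for Ppp1cb, -0.0295 to 0.17 for Ppp2cb, -0.0406 to 0.0522 for Ppp3ca, -0.0519 to 0.19 for Ppp3cb, -0.0194 to 0.13 for Ppp3cc, -0.0754 to 0.39 for Ppp6c and -0.52 to 0.0235 for Ppm1k. The causes of these changes were not tested. Where a sample was left out of a postnatal group, the lone sample was assumed to vary like the others. Without counts, differences at weak regions such as those of Dusp9, Dusp8 and Dusp18 cannot be set against counting error.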
